A study of Homo sapiens with 12 samples.

Results

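In JVM2, a human line of neoplastic B cells, 50 genes were read at close to 0 counts in all 3 libraries of one cell population and at clearly measurable counts in all 3 of the other. A gene was taken when it had at most 10 raw counts in every library of one arm and at least 50 in every library of the other, and ALOX5, FAT1 and COL14A1 were left out by name. The genes were thus selected on their raw counts in the 6 JVM2 libraries. The rule was met by 52 of the 17144 genes of the JVM2 table (0.303%). These included ALOX5 and COL14A1 but not FAT1, which had up to 13 counts in its low arm, so 50 near on-off genes remained. Of these, 43 were near off in JVM2-2B17 (0.262% of the table met the rule in this direction before the exclusions) and 7 were near off in JVM2-CTRL (0.0408%). Their JVM2 values are for that reason a description and carry no test.

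JVM2-2B17 cells had received the UGT2B17 coding sequence in the pcDNA6 expression vector, JVM2-CTRL cells had received the empty vector, and both were kept under blasticidin. MEC1, another human line of neoplastic B cells, was the comparison that did not enter the rule. MEC1-2B17 cells carried the same UGT2B17 construct under blasticidin, whereas MEC1-CTRL cells carried an shRNA knock-down of UGT2B17 and were kept under puromycin. Each of the 4 populations was sequenced in 3 biological replicates, and whether a population was 1 clone or a pool of transfected cells is not given in the sources used here. The libraries were sequenced at 2 sites, and which sample went to which is not given either, so a site difference between arms or lines was not tested. With 1 population per arm, an effect of UGT2B17 and a difference between the populations that were selected cannot be told apart, and the P-values cover only the spread between these libraries.

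UGT2B17 is a UDP-glucuronosyltransferase, an enzyme of the endoplasmic reticulum that attaches glucuronic acid to steroids, drugs and other small lipophilic molecules. Some of the near on-off genes were of classes known mainly from other tissues, with 8 on a cancer-testis list and 6 on neuronal lists. Another 24 were on none of the lists used. Cancer-testis genes, most of them in families on the X chromosome, are transcribed in male germ cells, are silent in most adult tissues under promoter DNA methylation, and reappear in many tumours. Voltage-gated channels, contactins and Robo receptors serve excitability, synapse formation and axon guidance in neurons, and bone morphogenetic proteins are secreted signals of the TGF-beta family.

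The libraries held 8809179 to 11231330 counts in JVM2 and 31762649 to 37744991 in MEC1. Levels in CPM are read counts scaled to the library total after the TMM adjustment of edgeR. UGT2B17 itself was read at 29.8, 26.2 and 27.4 CPM in JVM2-CTRL and at 35.3, 45.3 and 35.6 CPM in JVM2-2B17. In MEC1 it was read at 11.8, 10.8 and 10.4 CPM in MEC1-CTRL and at 22.7, 20.6 and 20.1 CPM in MEC1-2B17, so the arms did not overlap in either line. All 8 B-cell markers were present in both JVM2 arms, with a summed level of 4740 to 4920 CPM in CTRL and 5400 to 6480 CPM in 2B17. CD74 and HLA-DRA had the highest counts of the 8. The test in edgeR called 4 of the 8 higher and 1 lower in JVM2-2B17. None of 4 T-cell markers and none of 5 neuronal markers was in the JVM2 table, and of 4 germ-cell markers only POU5F1 was, at 0.906 to 1.59 CPM. The test in edgeR called 3 of the 4 plasma-cell markers lower in JVM2-2B17 (2730 to 2750 CPM in sum against 2470 to 2630). This sum was carried by IRF4 (19336, 20869 and 18544 counts in CTRL, 22857, 16991 and 18397 in 2B17). PRDM1 had 950, 980 and 901 counts in CTRL against 354, 239 and 309. The summed level of 4 fibroblast markers was 16.3 to 19.5 CPM in CTRL and 23.5 to 29.2 in 2B17, carried by PDGFRB while DCN and COL1A2 were not listed, and that of 4 myeloid markers was 4.03 to 5.32 against 5.71 to 8.49, carried by CD33 while CD14 was not listed. The part of these shifts in the results was not tested. The 6 JVM2 libraries had the same leading immunoglobulin segments, namely IGHV3-20 (89.6 to 94.5% of heavy-chain V counts), IGLV2-14 (at least 99.9% of lambda V counts) and IGKV3-11 (86.5 to 94.3% of kappa V counts, under 300 counts in any library). IGHV3-20 had 3567, 3748 and 3292 counts in CTRL and 1722, 1099 and 1302 in 2B17, and IGLV2-14 had 43973, 44380 and 37730 against 22745, 17022 and 17157.

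The promoters of the cancer-testis genes are shown first, because this class had the most members and held the closest neighbours in the genome. The sequences are RefSeq promoter windows of GRCh38.p14, each with 250 bases before and 50 bases after an annotated start, printed 5′ to 3′ on the strand of the gene with CG dinucleotides, the usual target of DNA methylation, in capitals. PAGE2B (chrX:55074780-55075079), PAGE2 (chrX:55088768-55089067) and PAGE5 (chrX:55220096-55220395) lie on the plus strand within 1 stretch of the X chromosome.
PAGE2B: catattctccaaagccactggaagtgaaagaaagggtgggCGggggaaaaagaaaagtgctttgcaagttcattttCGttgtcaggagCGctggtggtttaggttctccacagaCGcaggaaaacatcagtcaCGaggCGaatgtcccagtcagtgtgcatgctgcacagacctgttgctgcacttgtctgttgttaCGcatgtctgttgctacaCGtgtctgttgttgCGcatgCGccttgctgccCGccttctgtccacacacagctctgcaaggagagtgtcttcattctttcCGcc
PAGE2: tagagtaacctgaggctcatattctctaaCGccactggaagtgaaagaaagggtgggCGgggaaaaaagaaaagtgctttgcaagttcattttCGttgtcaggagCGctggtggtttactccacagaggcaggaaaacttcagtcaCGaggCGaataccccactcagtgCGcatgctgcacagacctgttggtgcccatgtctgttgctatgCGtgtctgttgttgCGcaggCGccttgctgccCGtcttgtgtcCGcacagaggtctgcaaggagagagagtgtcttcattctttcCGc
PAGE5: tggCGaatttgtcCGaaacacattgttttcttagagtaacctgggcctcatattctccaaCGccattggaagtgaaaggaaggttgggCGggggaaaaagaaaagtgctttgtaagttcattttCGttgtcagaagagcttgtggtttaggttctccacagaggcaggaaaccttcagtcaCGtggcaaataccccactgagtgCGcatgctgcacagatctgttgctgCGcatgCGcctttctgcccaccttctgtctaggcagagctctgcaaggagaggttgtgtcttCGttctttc

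Their windows were largely copies of each other, with 93.2% identity over 279 aligned columns between PAGE2 and PAGE2B, 88.7% over 265 between PAGE2 and PAGE5, and 89.5% over 248 between PAGE2B and PAGE5. They held 12, 13 and 10 CG sites respectively. Each had the motif GGGCGG, the core of a GC box, within the stretch ggtgggCGggg or ggttgggCGggg. The windows of GAGE1 (chrX:49598763-49599062) and MAGEA12 (chrX:152733507-152733806), both also near off in JVM2-2B17, and of PASD1 (chrX:151563425-151563724), the cancer-testis gene that was near off in JVM2-CTRL instead, follow. All 3 are on the plus strand.
GAGE1: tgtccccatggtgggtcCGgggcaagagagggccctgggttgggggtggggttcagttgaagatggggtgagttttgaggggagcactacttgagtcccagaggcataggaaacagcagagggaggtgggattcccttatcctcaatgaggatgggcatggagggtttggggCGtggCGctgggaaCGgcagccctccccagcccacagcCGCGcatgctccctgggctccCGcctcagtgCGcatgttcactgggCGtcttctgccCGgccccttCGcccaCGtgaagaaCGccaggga
MAGEA12: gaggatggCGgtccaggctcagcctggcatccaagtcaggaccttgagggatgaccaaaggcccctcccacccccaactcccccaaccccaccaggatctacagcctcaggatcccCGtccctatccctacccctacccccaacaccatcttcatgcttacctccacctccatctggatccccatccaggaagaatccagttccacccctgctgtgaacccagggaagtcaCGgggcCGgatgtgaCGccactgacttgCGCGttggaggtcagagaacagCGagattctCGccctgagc
PASD1: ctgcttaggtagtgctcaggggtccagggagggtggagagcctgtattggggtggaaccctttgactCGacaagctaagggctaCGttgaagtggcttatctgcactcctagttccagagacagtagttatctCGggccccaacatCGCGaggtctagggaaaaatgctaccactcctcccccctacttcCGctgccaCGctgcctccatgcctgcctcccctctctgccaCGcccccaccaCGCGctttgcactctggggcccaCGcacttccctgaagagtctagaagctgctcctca

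GAGE1 and GAGE2A had 100% identity over 293 aligned columns, so GAGE2A is not printed. The PASD1 window, with 11 CG sites, lay within the range of the 6 other windows, which held 9 to 13. LIN28B (chr6:104940715-104941014, plus strand), a gene of germ cells and embryonic tissue that was near off in JVM2-2B17, is shown as a contrast.
LIN28B: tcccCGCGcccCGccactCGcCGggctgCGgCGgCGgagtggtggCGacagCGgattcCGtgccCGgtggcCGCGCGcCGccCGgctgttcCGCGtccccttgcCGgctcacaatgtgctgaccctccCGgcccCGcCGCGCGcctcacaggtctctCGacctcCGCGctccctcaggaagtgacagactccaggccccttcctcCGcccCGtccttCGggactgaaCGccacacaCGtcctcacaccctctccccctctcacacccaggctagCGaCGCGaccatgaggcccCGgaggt

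This window had 37 CG sites, about as dense as CpG-island promoters are known to be. RefSeq windows were found for 29 of the 50 genes, and they held a median of 20 CG sites (range 4 to 50). The median was 12 in the 7 cancer-testis genes with a window, 25.0 over 11413 genes of the JVM2 table and 13.0 over all 27305 promoters. RALGPS2 had the most, at 50, and CNTN5 and UNC13B, genes of the synapse and axon list, had 30 and 26. GGGCGG was present on either strand in 17 of 29 windows (58.6%), against 67.1% of the windows of the JVM2 table and 44.5% of all promoters. TATAAA, the TATA box, was present in 1, that of CREB5 (3.45%), against 6.38% and 12%. CCGGAA, the core of ETS-factor sites, was present in 2, those of CCDC85A and SLC6A14 (6.9%), against 29.2% and 17.6%. The counts of GGGCGG and CCGGAA overlap with the count of CG sites, since both motifs hold a CG.

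The plot of counts by gene shows how wide the gap between the arms was. In 18 of the 50 genes no library of the low arm had more than 3 counts, and in 26 every library of the high arm had at least 100. Only SCN3A, MAGEA1, LTBP1 and PAGE2B had at least 500 in every library of the high arm. For the 47 genes with at least 1 count in the low arm, the ratio of the arms had a median of 35.8 and ran from 7.10 in DEPTOR to 4645 in SCN3A. The annotation classed 41 of the genes as protein-coding, 5 as long noncoding RNAs and 4 as pseudogenes, and all 50 passed the filter on low counts in JVM2, as the rule ensures.

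**Figure D1:**
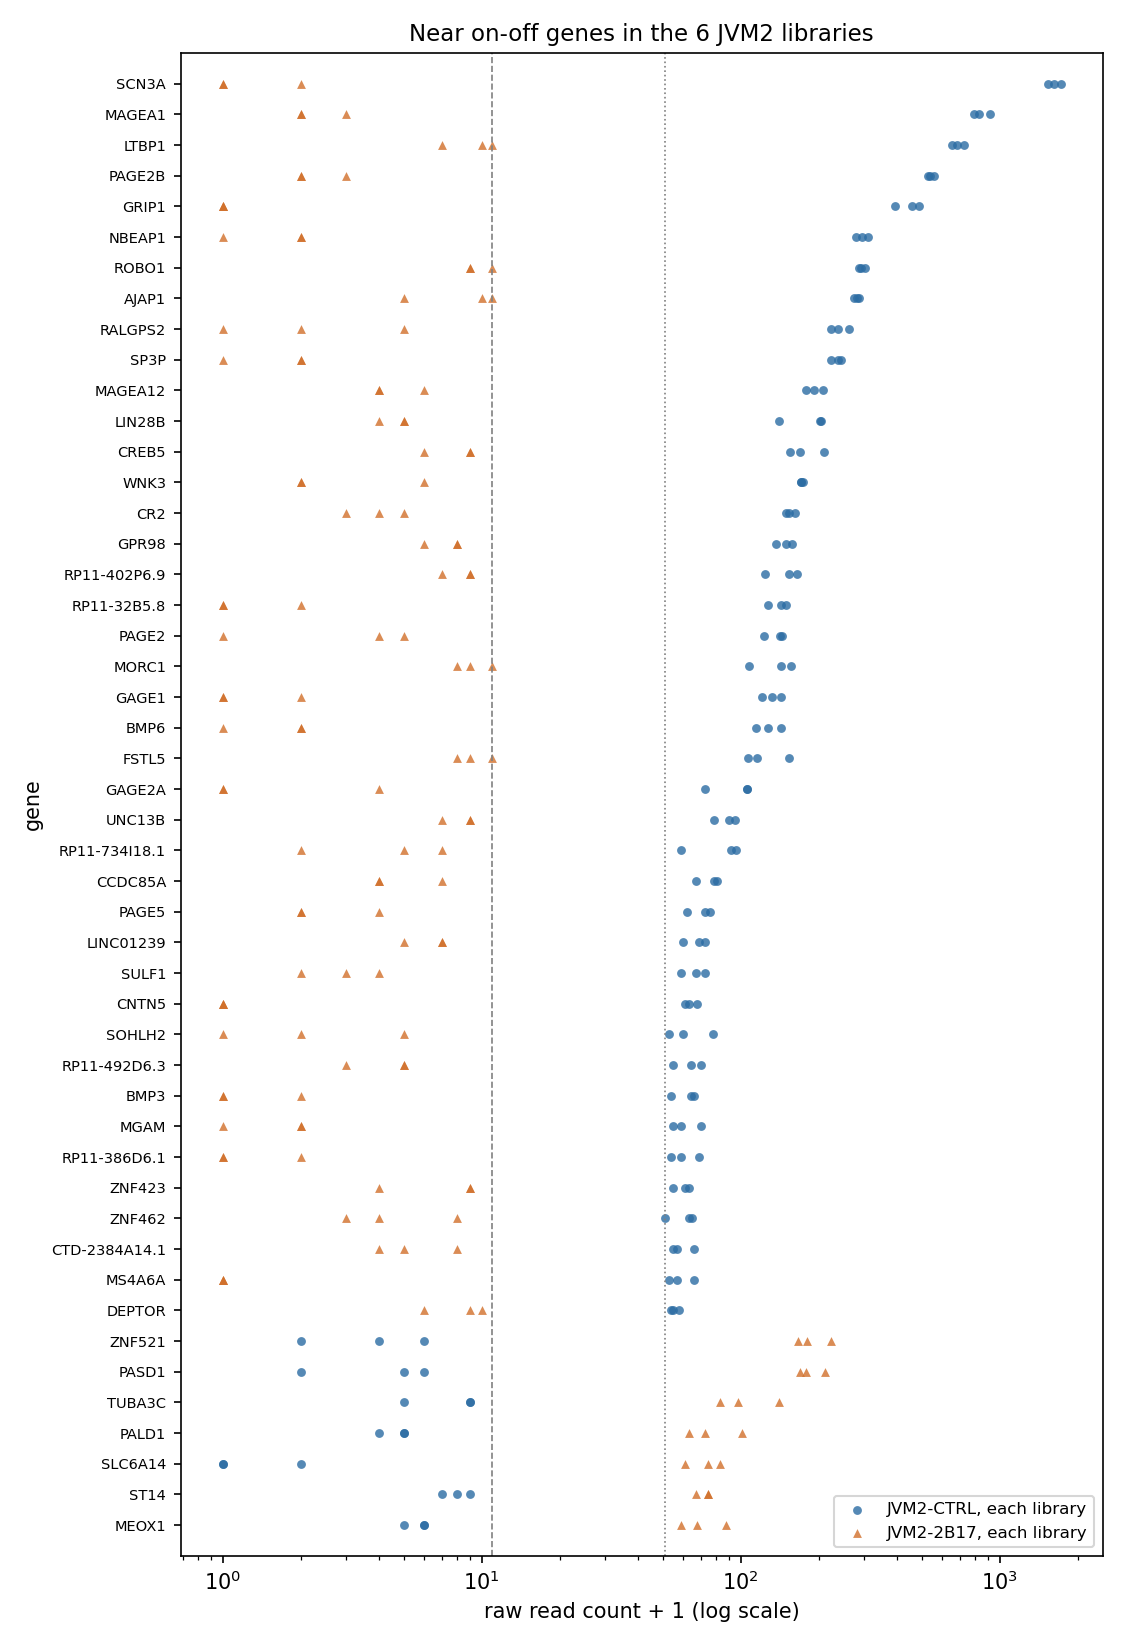
Raw read count plus 1 (log scale) of 48 of the 50 near on-off genes in each JVM2 library, with circles for JVM2-CTRL, triangles for JVM2-2B17, a dashed line at 10 counts and a dotted line at 50 counts. The 41 genes above ZNF521 have their circles right of the dotted line and their triangles at or left of the dashed line, and the 7 genes from ZNF521 down show the reverse.

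Cancer-testis antigens were the class with the most near on-off genes, with 8 members, all on the X chromosome, 7 of them near off in JVM2-2B17. MAGEA1 (ENSG00000198681, chrX:153179284-153183880 on GRCh38), which encodes a melanoma antigen seen by cytotoxic T cells, had 798, 920 and 830 counts in JVM2-CTRL and 2, 1 and 1 in JVM2-2B17. PAGE2B (ENSG00000238269, chrX:55075030-55078909), of the PAGE antigen family, had 539, 557 and 528 counts in CTRL and 1, 2 and 1 in 2B17. The ratios of the arms were 607 (95% exact interval 237 to 2229, counting error only) and 387 (151 to 1421).

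The PAGE2B level, 99.8 CPM per kb of exon in JVM2-CTRL, was the highest per length among the 50 genes, and that of MAGEA1 was the next at 49.4. The neighbours PAGE2 and PAGE5 followed the same pattern, PAGE2 with 122, 143 and 141 counts in CTRL against 3, 0 and 4 in 2B17. PAGE5 had 75, 72 and 61 counts against 3, 1 and 1. Of the GAGE antigens, GAGE1 had 120, 142 and 131 counts against 1, 0 and 0, a ratio of 374 (66.8 to 14830), and GAGE2A had 105, 105 and 72 against 3, 0 and 0. MAGEA12, a further MAGE antigen, had 177, 206 and 191 against 5, 3 and 3. Reads of such copies are hard to place. GAGE2A shared 86.1% of its 50-base words with other genes, PAGE2B 49.1% (mostly PAGE2) and PAGE2 39.2%, so the split of counts among copies is uncertain, while MAGEA12, GAGE1 and PAGE5 shared up to 13.7%.

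PASD1, a cancer-testis antigen with a PAS domain, went the other way, with 4, 5 and 1 counts in JVM2-CTRL and 211, 169 and 177 in JVM2-2B17, a ratio of 58.5 (31.6 to 123). The near on-off genes of this class thus did not all lie in the same direction.

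The other cancer-testis genes of the JVM2 table gave both directions as well. The list, set by symbol families, held 58 genes, of which 35 passed the filter. Among the 27 of these that were not near on-off genes, edgeR called 14 lower and 3 higher in JVM2-2B17 (63.0%), against 29.3% of all 13021 genes tested (15.3% lower and 14.1% higher). In other fixed lists this share ran from 28.0% (transcription factors) to 57.5% (immune receptors and cytokines). Genes such as MAGEA10 and SPANXD passed the filter through JVM2-CTRL alone, so the filter in part set the share. With at least 10 counts required in every library, 7 of 15 list genes were called, 5 lower and 2 higher. Over all genes, 3299 of 12023 were called at that setting. The symbol pattern also took ODF2, SSX2IP, CTAGE5 and the TSPYL genes, not all of which are cancer-testis antigens. Without them, 16 of the 21 tested list genes that were not near on-off genes were called, 13 lower and 3 higher, a trimming chosen after the values were seen. Among those lower was CSAG1, whose start lies beside that of MAGEA12, with 257, 272 and 243 counts in CTRL and 12, 10 and 10 in 2B17. MAGEA10 had 44, 50 and 24 counts against 0 in all 3 libraries, and CTAG2 had 52, 50 and 38 against 5, 4 and 4. MAGEC1 was lower by a smaller factor, from 559, 635 and 541 counts to 250, 135 and 215 (log2 fold change -1.47 ± 0.13 SE, adjusted P = 2.8e-06, edgeR).

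MAGEA6 (log2 fold change 0.62 ± 0.093, adjusted P = 0.0003), MAGEA3 (0.30 ± 0.057, adjusted P = 0.002) and PRAME (1.62 ± 0.28, adjusted P = 0.00083) were called higher by edgeR. MAGEA3 had 850, 973 and 812 counts in JVM2-CTRL and 1166, 964 and 949 in JVM2-2B17, so members of the same MAGEA family as MAGEA1 stayed abundant in the arm where MAGEA1 was near 0.

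**Figure D2:**
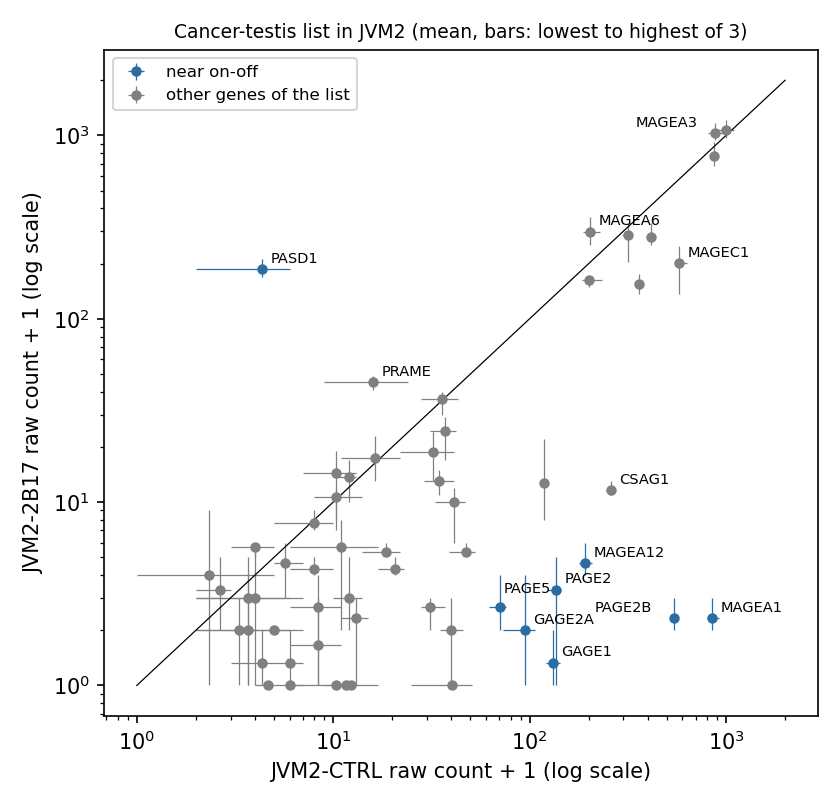
Mean raw count plus 1 of each cancer-testis list gene in JVM2-CTRL (horizontal) and JVM2-2B17 (vertical), both on log scales, with bars from the lowest to the highest of 3 libraries and a line where both are equal. MAGEA1, PAGE2B, PAGE2, PAGE5, GAGE1, GAGE2A and MAGEA12 lie far below the line and PASD1 far above it, while MAGEA3 and MAGEA6 lie close to it.

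Further genes known from germ cells were near off in JVM2-2B17 although the list did not hold them, and these were named after the values were seen. LIN28B, an RNA-binding protein that blocks let-7 maturation, had 139, 201 and 204 counts in CTRL and 4, 3 and 4 in 2B17. MORC1, needed for transposon silencing in male germ cells, had 142, 155 and 107 against 8, 7 and 10. SOHLH2, a transcription factor of early germ-cell differentiation, had 52, 77 and 59 against 4, 1 and 0. Of these, SOHLH2 shared 43.0% of its 50-base words with the readthrough gene CCDC169-SOHLH2. TUBA3C, an alpha-tubulin transcribed mainly in testis, was higher in 2B17, with 4, 8 and 8 counts against 139, 82 and 97, and shared 16.9% of its words with TUBA3D and other genes.

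Neuronal channel, receptor, synapse and axon genes gave 6 near on-off genes, all near off in JVM2-2B17, of which 5 are described. SCN3A (ENSG00000153253, chr2:165087526-165204050), the alpha subunit of a brain sodium channel, had 1619, 1717 and 1539 counts in CTRL and 1, 0 and 0 in 2B17. With 1 count in all of JVM2-2B17 its ratio of 4645 has a wide interval, from 833 to 183500. GRIP1 (ENSG00000155974, chr12:66347431-67069162), a scaffold that binds AMPA-type glutamate receptors, had 457, 487 and 394 counts against 0 in all 3 libraries, at least 425-fold higher in CTRL against a floor of 3 counts over the arm.

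CNTN5, a contactin of the neuronal surface, was also without a count in JVM2-2B17, against 60, 62 and 67 in CTRL, at least 60.0-fold higher. ROBO1, a receptor for Slit guidance cues, had 290, 284 and 301 against 10, 8 and 8. These are the levels at which a few reads remain, as they did for UNC13B, a synaptic vesicle priming factor, with 94, 78 and 89 against 6, 8 and 8. Per length UNC13B was among the lowest of the 50 genes in CTRL, at 0.486 CPM per kb, against 13.97 for SCN3A and 6.20 for GRIP1.

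Of 150 other tested genes of these neuronal lists, edgeR called 47 lower and 16 higher in JVM2-2B17 (42.0%, with 29.3% over all genes). This share was not particular to them. Among such genes of other fixed lists it was 55.6% for adhesion and matrix, 57.5% for immune receptors and cytokines and 39.5% for signalling. It was 28.0% for transcription factors and 29.2% for transporters. SCN2A, whose start lies 9.1 kb from that of SCN3A, had 46, 55 and 51 counts against 1, 2 and 0. TENM1, a teneurin of synaptic partner matching, had 678, 734 and 683 against 23, 16 and 24. NRCAM, an adhesion molecule of axons, moved in the opposite direction, from 23, 27 and 27 counts in CTRL to 391, 317 and 333 in 2B17. The neuronal lists were set by symbol families and also took genes that are not specific to neurons, such as DLGAP5, UNC50 and LRRC47. Their share is thus not one of neuronal genes alone, and the directions were mixed. The markers SNAP25, SYT1, RBFOX3, STMN2 and TUBB3 were not in the table.

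Several secreted or cell-surface proteins were near off in JVM2-2B17, named after the values were seen except for the BMPs. LTBP1 (chr2:32946953-33399509), which tethers latent TGF-beta to the matrix, had 682, 727 and 651 counts in CTRL and 10, 6 and 9 in 2B17, a ratio of 78.5 (53.0 to 122). BMP6 had 126, 142 and 114 counts against 0, 1 and 1, and BMP3 had 63, 65 and 53 against 0, 1 and 0. Both BMPs thus had at most 1 count in any JVM2-2B17 library. FSTL5, a follistatin-like protein, had 115, 153 and 106 counts against 7, 10 and 8, and SULF1, which removes sulfate from heparan sulfate chains, had 66, 72 and 58 against 2, 3 and 1. AJAP1, a protein of adherens junctions, had 273, 284 and 280 against 4, 9 and 10. No gene of the fixed adhesion and matrix list was a near on-off gene after the exclusions by name. COL14A1, a collagen gene left out by name, had met the rule, with 622, 606 and 560 counts against 6, 2 and 3. Matrix genes were thus not absent from the pattern before the exclusions. Of the 81 tested genes of the list edgeR called 17 higher and 28 lower (55.6%, against 29.3% over all genes). FSTL5 overlapped exons of another gene on the opposite strand over 11.6% of its length, and with the strand setting of the counting not given its reads are uncertain.

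The fixed signalling list held 4 near on-off genes, BMP6, BMP3, RALGPS2 and GPR98, all near off in 2B17. Of its 395 other tested genes edgeR called 84 higher and 72 lower (39.5%, against 29.3% over all genes). RALGPS2, an exchange factor for Ral GTPases, had 222, 260 and 236 counts in CTRL and 4, 0 and 1 in 2B17, a ratio of 137 (58.4 to 423). GPR98 (now ADGRV1), a very large adhesion receptor, had 136, 157 and 148 against 7, 5 and 7. Of genes outside the list, named after their values were seen, WNK3, a kinase that regulates cation-chloride cotransporters, had 170, 173 and 170 against 1, 5 and 1, and DEPTOR, an inhibitor of mTOR, had 54, 57 and 53 against 5, 8 and 9. DEPTOR had the narrowest gap of the 50 genes.

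The fixed list of immune receptors and cytokines had 285 genes in the JVM2 table, and 2 of them were near on-off genes. Over the whole table the rule was met by 52 of 17144 genes (0.303%) before the exclusions. CR2, the complement receptor CD21 of mature B cells, had 161, 148 and 153 counts in CTRL and 3, 4 and 2 in 2B17, a ratio of 48.9 (25.5 to 108). MS4A6A, a membrane protein related to CD20, had 65, 56 and 52 counts against 0 in all 3 libraries, at least 54.9-fold higher in CTRL. CR2 was therefore near off in a population in which all 8 B-cell markers were read.

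Transcription factors stood on both sides. CREB5 (168, 208 and 154 counts in CTRL, 5, 8 and 8 in 2B17), ZNF423 (62, 54 and 60 against 8, 3 and 8) and ZNF462 (64, 62 and 50 against 3, 2 and 7) were near off in 2B17. ZNF521 (chr18:25061924-25352190), a zinc-finger factor of early progenitors and the closest relative of ZNF423, was near off in CTRL, with 5, 3 and 1 counts against 222, 165 and 180. MEOX1, a homeobox factor of the somites, had 5, 5 and 4 against 87, 58 and 67. The related pair ZNF423 and ZNF521 thus lay in opposite arms.

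The remaining genes near off in JVM2-CTRL were SLC6A14, PALD1 and ST14. SLC6A14, an amino acid transporter of epithelia, had 0, 1 and 0 counts in CTRL and 82, 74 and 60 in 2B17, a ratio of 227 (40.3 to 8995). PALD1, a phosphatase-like protein, had 4, 4 and 3 against 100, 62 and 72, and ST14, the membrane serine protease matriptase, had 6, 8 and 7 against 74, 66 and 74. ST14 had the smallest ratio of the 7, at 10.7 (6.82 to 17.6). All 7 genes near off in CTRL were protein-coding.

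The 9 noncoding genes and pseudogenes were all near off in JVM2-2B17. NBEAP1, a pseudogene of neurobeachin, had 277, 309 and 293 counts in CTRL and 1, 0 and 1 in 2B17, and SP3P, a processed pseudogene of the factor SP3, had 243, 222 and 237 against 1, 1 and 0. RP11-32B5.8, a long noncoding RNA, had 149, 142 and 127 against 0, 0 and 1. The other 6 were RP11-402P6.9, RP11-492D6.3 (now RHPN2P1), RP11-734I18.1 (now LINC02506), LINC01239, RP11-386D6.1 and CTD-2384A14.1 (now LINC02327), each with at most 8 counts in any library of 2B17. NBEAP1 shared 40.4% of its 50-base words with other genes and RP11-402P6.9 34.7%, and their counts are uncertain for that reason. Of the other protein-coding genes, MGAM, an intestinal maltase-glucoamylase, had 58, 69 and 54 counts against 1, 0 and 1, and CCDC85A had 66, 78 and 80 against 3, 6 and 3. CCDC85A overlapped other annotated exons on its own strand over 48.2% of its length.

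The 50 genes lay on 19 chromosomes, and the X chromosome held 11 of them (22.0%), against 3.58% of the 16799 genes of the JVM2 table with a position. The 11 were the 8 cancer-testis genes, WNK3, RP11-402P6.9 and SLC6A14, and 9 of them were near off in JVM2-2B17. Outside the X chromosome no chromosome held more than 4.

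**Figure D3:**
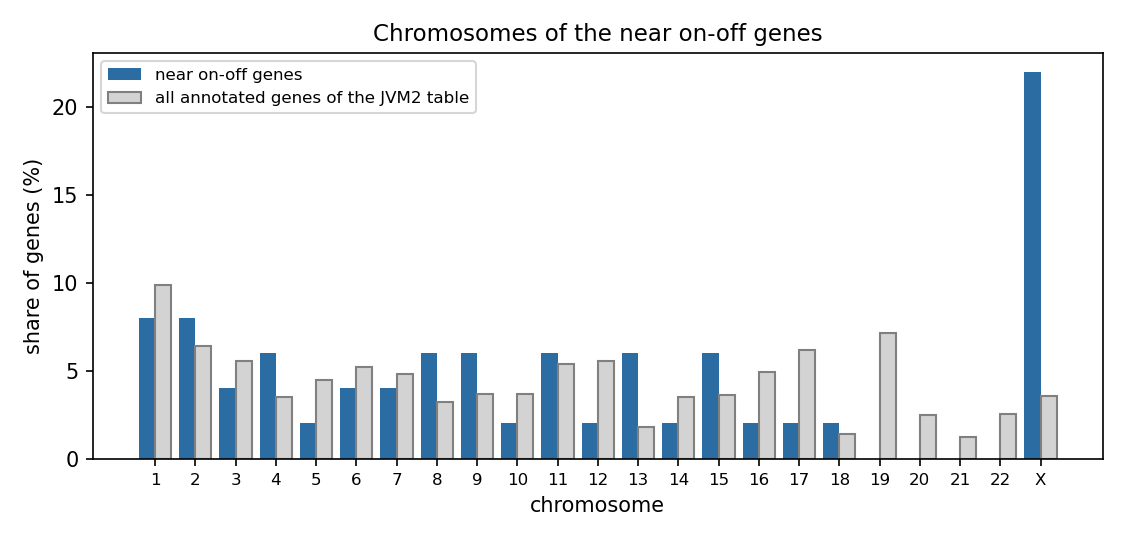
Share of the near on-off genes (blue) and of all annotated genes of the JVM2 table (grey) on each chromosome, in percent. The X chromosome holds 22.0% of the near on-off genes and 3.58% of all annotated genes, and chromosomes 19 to 22 hold no near on-off gene.

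Of the 50 genes, 9 started within 500 kb of another, all of them near off in JVM2-2B17. GAGE2A and GAGE1 started 9.5 kb apart and PAGE2B and PAGE2 14 kb apart, with PAGE5 131.3 kb beyond PAGE2. MAGEA12 and MAGEA1 were 445.5 kb apart. On chromosome 15, RP11-492D6.3 and NBEAP1 were 410.9 kb apart. No pair within 500 kb was split between the arms.

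Genes that lay close to a near on-off gene and were not of the set moved in part the same way. Within 500 kb of the 43 genes near off in 2B17, edgeR called 25 of 110 tested neighbours lower (22.7%) and 12 higher (10.9%), against 15.3% and 14.1% over all genes. Within 500 kb of the 7 genes near off in CTRL, 8 of 36 were called higher (22.2%) and 3 lower (8.33%). On chromosome 8, the genes CNGB3, RP11-386D6.2 and CNBD1, which start 36.1, 58.4 and 158.9 kb from RP11-386D6.1, had 13 to 32 counts in each CTRL library and 0 in each 2B17 library. These 3 genes and RP11-386D6.1 were together without reads in JVM2-2B17 but for 1 count of RP11-386D6.1. Beside NBEAP1 on chromosome 15, CXADRP2 had 18, 32 and 21 counts against 0 in all 3 libraries, and HERC2P3 had 94, 100 and 112 against 15, 11 and 13. COL14A1, left out by name, starts 186.1 kb from DEPTOR and had 622, 606 and 560 counts against 6, 2 and 3. It is counted among the neighbours called lower, although its own counts met the rule and so fixed that call. FATE1, a cancer-testis gene 152.4 kb from PASD1, went against its neighbour, with 24, 28 and 17 counts in CTRL and 3, 3 and 4 in 2B17, whereas PASD1 was near off in CTRL.

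The MEC1 libraries had no part in the choice of the genes and gave the test of whether the same genes differed between 2B17 and CTRL cells elsewhere. Most of the genes had few or no reads in MEC1. Only 20 of the 50 (40.0%) were in the MEC1 table, which lists genes with at least 10 counts over its 6 libraries, against 93.6% of all genes of the JVM2 table and 98.2% of the 10462 JVM2 genes with at least 50 counts in every library of an arm. None of the 8 cancer-testis genes and none of the 9 noncoding genes was listed. The MEC1 libraries were the deeper ones, and 9 of 22441 genes met the same limits there (0.0401%), none of them among the 50.

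Of the 20 listed genes, 16 passed the filter and edgeR called 12 of them at an adjusted P below 0.05 (75.0%), against 41.7% of all 16581 genes tested. Of the 12, 7 were lower and 5 higher in MEC1-2B17 (backgrounds of 21.6% and 20%), and the arms did not overlap in any of the 12, as in 95.9% of all genes called in MEC1 and 50.1% of all tested. The direction was that of JVM2 in 7 and the opposite in 5. The median log2 fold change of the 16 was -0.24, against 0.00 (0.003) over all tested genes, and the median absolute change was 0.70 against 0.17.

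Of the 13 tested genes near off in JVM2-2B17, 6 were also lower in MEC1-2B17. SCN3A had 313, 202 and 192 counts in MEC1-CTRL and 36, 33 and 36 in MEC1-2B17, a level of 6.63 ± 1.39 CPM (SD, n = 3) against 1.07 ± 0.062 (log2 fold change -2.63 ± 0.17 SE, adjusted P = 3.6e-10). RALGPS2 had 770, 715 and 641 against 197, 167 and 170 (-1.89 ± 0.074, adjusted P = 4.3e-13). BMP3 had 62, 53 and 50 against 12, 11 and 14 (-2.04 ± 0.22, adjusted P = 4.9e-07). The sodium channel, the Ral exchange factor and the BMP were thus 3.70 to 6.21-fold lower, with reads left in every library. The 3 smaller changes were those of ZNF462 (-0.59 ± 0.13, adjusted P = 0.00094), DEPTOR (-0.50 ± 0.13, adjusted P = 0.0044) and CREB5 (-0.21 ± 0.046, adjusted P = 0.00092). Of the genes near off in JVM2-CTRL, MEOX1 was higher in MEC1-2B17, with 172, 122 and 142 counts against 455, 423 and 425 (1.69 ± 0.09, adjusted P = 2.7e-11).

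Another 4 genes near off in JVM2-2B17 were higher in MEC1-2B17. ROBO1 had 528, 415 and 421 counts in MEC1-CTRL and 1300, 1347 and 1240 in MEC1-2B17, or 12.9 ± 0.93 CPM against 39.6 ± 1.45 (log2 fold change 1.62 ± 0.059, adjusted P = 1.6e-13). GPR98 had 1321, 1137 and 928 counts against 3668, 3860 and 3458 (1.81 ± 0.059, adjusted P = 3.7e-14). CR2 had 19487, 16794 and 16022 against 28139, 29633 and 27730 (0.82 ± 0.036, adjusted P = 1.9e-12). CR2, the complement receptor, was among the well-read B-cell genes of MEC1, at 494 ± 16.0 CPM in MEC1-CTRL, while it had at most 4 counts in any JVM2-2B17 library. UNC13B rose less, from 1155, 964 and 921 counts to 1584, 1482 and 1385 (0.66 ± 0.051, adjusted P = 4.3e-09). In the other direction, PALD1, near off in JVM2-CTRL, was well read in both MEC1 arms at 72.8 ± 3.84 and 61.4 ± 2.01 CPM and slightly lower in MEC1-2B17 (-0.25 ± 0.044, adjusted P = 0.00016).

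**Figure D4:**
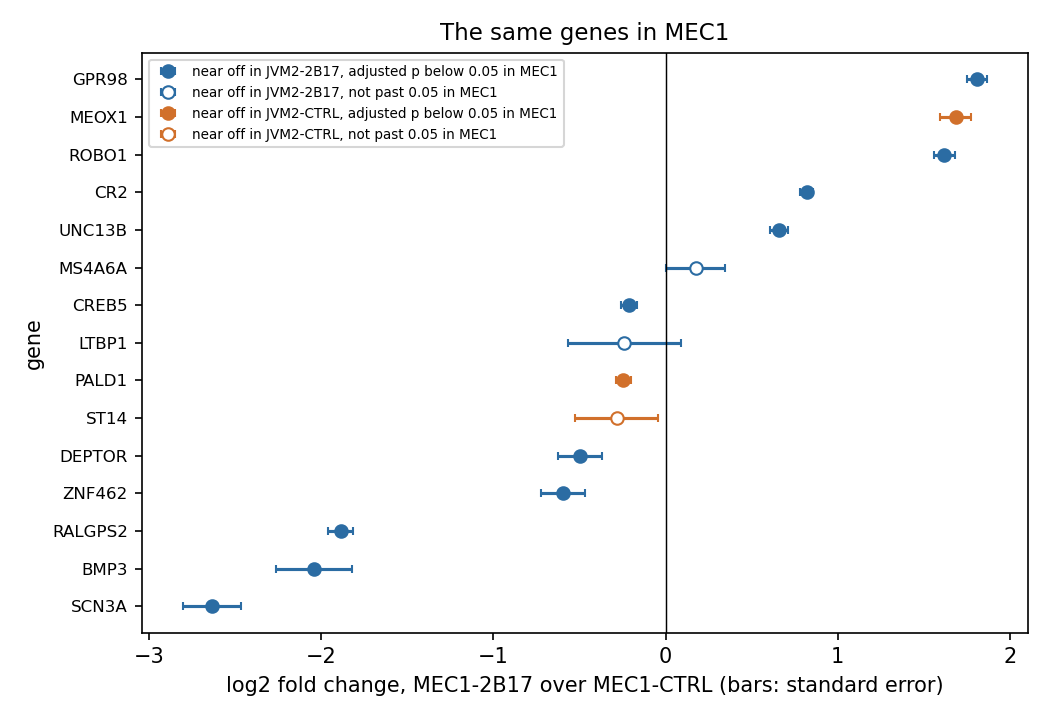
Log2 fold change of MEC1-2B17 over MEC1-CTRL with its standard error for 15 of the 16 near on-off genes tested in MEC1, in blue where the gene was near off in JVM2-2B17 and orange where it was near off in JVM2-CTRL, filled where the adjusted P is below 0.05. Blue points lie on both sides of 0, from -2.63 for SCN3A to 1.81 for GPR98.

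The tested genes that were not called included LTBP1 (-0.24 ± 0.33, adjusted P = 0.61), MS4A6A (0.18 ± 0.17, adjusted P = 0.44) and ST14 (-0.28 ± 0.24, adjusted P = 0.38). LTBP1, with 682, 727 and 651 counts in JVM2-CTRL, had 7 to 15 in any MEC1 library. GRIP1 (8, 13 and 11 counts in MEC1-CTRL, 2, 0 and 4 in MEC1-2B17), MORC1, BMP6 and CCDC85A were listed but did not pass the filter.

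The limits of the rule cut through a continuum. Just inside, FSTL5, MORC1 and AJAP1 had 10 counts in their highest 2B17 library, and ZNF462 had 50 in its lowest CTRL library. Just outside were TBX22, a T-box factor with 148, 162 and 160 counts in CTRL and 11, 5 and 8 in 2B17, KCNQ1, a potassium channel with 52, 54 and 54 against 7, 11 and 10, and CSAG1. ENSG00000259834 (49, 69 and 51 against 8, 6 and 5), ENSG00000233968 (48, 67 and 65 against 1, 0 and 0) and CCR2 (58, 46 and 66 against 3, 0 and 1) failed the limit on the high arm. In the other direction, ST14 and TUBA3C had up to 8 counts in CTRL and MEOX1 had 58 in its lowest 2B17 library. ZFYVE9, an endosomal anchor of TGF-beta receptor signalling, lay just outside with 8, 5 and 12 counts in CTRL and 579, 456 and 425 in 2B17, as did PALM and TMEM98 with up to 12 in CTRL. ZNF607, F13A1 and LNX1 had 46, 44 and 43 counts in their lowest 2B17 library.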

How the data were processed

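RNA of 12 samples (4 populations of MEC1 and JVM2 cells, 3 biological replicates each) was sequenced by the authors after ribosomal RNA depletion and trimmed. The submitters' processing notes name Trimmomatic, TopHat2 2.0.14, HTSeq, edgeR and DESeq2, and the build is hg38. The authors deposited, per line, raw counts per Ensembl gene, without normalization, and only these counts entered the fits. The authors also deposited rounded normalized values (a score), log2 fold changes, log2 CPM and P-values of their own comparisons, none of which was used. Whether counting used the strand is not given in the sources used here.

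Groups came from the labels. The 6 libraries of a line were fitted together, without the other line, by edgeR 4.0.16 (R 4.3.3, TMM, filterByExpr with a minimum count of 10, quasi-likelihood F-test), with Benjamini-Hochberg adjustment over all genes tested in the line, called below 0.05, and the other steps used Python 3.11.15 and scipy 1.17.1. The standard error of a log2 fold change was derived from the F statistic. The code was tested on simulated data. Ratios in JVM2 are of summed counts scaled by library totals after TMM adjustment, with a 95% exact binomial (Clopper-Pearson) interval. Where no read was found, they are against a floor of 3 counts over the arm. Intervals and floors cover counting error only. Positions, biotypes, exon lengths and shared 50-base words are from GENCODE v44 on GRCh38, and the promoter windows, matched by current symbol (the most upstream of each gene), are from RefSeq. Windows were compared by local pairwise alignment.

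The genes, lists and tests were chosen with earlier results of these data known. Named were, in each direction, the 10 genes with the highest CPM in the high arm, all of the cancer-testis and neuronal lists, all within 500 kb of another, those called or best read in MEC1, up to 3 of each other list, and those at the limits. The rest were named to account for the set, and the values of 2 genes are not reported here. The choice of windows to print, the alignment, the comparison with the MEC1 table's coverage, the neighbours given with their counts and the checks of exon overlap and immunoglobulin segments were made after the values were seen. Alternatives were other limits, scalings, filters, DESeq2 1.42.0, the replicate number as a block, other distances and each replicate left out.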

Additional observations from a re-analysis of the deposited data

Results flagged for a closer look

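For 5 genes, every MEC1 library pair moved against the direction that JVM2 showed. ROBO1, CR2, GPR98 and UNC13B were near off in JVM2-2B17 and higher in all MEC1-2B17 libraries than in any MEC1-CTRL library, with log2 fold changes of 1.62 (1.619), 0.82 (0.819), 1.81 (1.809) and 0.66 (0.658). PALD1 was near off in JVM2-CTRL and lower in all MEC1-2B17 libraries, with a log2 fold change of -0.25 (-0.246). The difference between the lines was not tested, because the JVM2 values had chosen the genes. The MEC1 arms differed in vector and antibiotic, and MEC1-CTRL carried an shRNA, whereas the JVM2 arms shared the vector backbone and the antibiotic, so the line and these features cannot be told apart.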

How the results depend on the processing

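The number of near on-off genes followed the limits. It was 17 at no more than 5 counts in one arm and at least 100 in the other, 26 at no more than 10 and at least 100, and 87 at no more than 20 and at least 50, against 50. On counts scaled to a common library size it was 47, of which 46 were among the 50. Leaving out any 1 replicate loosens the rule by construction and gave 51 to 56 genes. With at least 10 counts required in every library, 7 cancer-testis genes were called in place of 25, since only 15 were then tested and genes near 0 in an arm drop out by construction. Within 100 kb, 4 genes had another near on-off gene, against 9 within 500 kb. The median number of CG sites was 22.0 with 1 gene per cluster, 21.0 for genes near off in JVM2-2B17 and 15.5 for the 4 near off in JVM2-CTRL, against 20.

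In MEC1 none of the 16 tested genes changed its call under the other scalings, filters, DESeq2, the block or the left-out replicates in which it was tested. The direction changed in LTBP1, which was not called, with log2 fold changes from -0.44 to 0.026 when each replicate was left out, the highest without MEC1-2B17 replicate 1. Between 12 and 13 of the 50 genes were called with each replicate left out, 13 by DESeq2 and 15 without the filter. Same-numbered replicates did not deviate together (correlations of 0.086, 0.117 and -0.0059 in JVM2 and -0.042, -0.0068 and 0.04 in MEC1), so the numbers were not taken to pair the samples. With the replicate block 12 of the 50 genes were called in MEC1, 6897 genes in MEC1 against 6909, 4236 in JVM2 against 3821, 26 cancer-testis genes and 74 neuronal genes. At the depth of JVM2, single reads set the ratios of genes with 1 to 3 counts in the low arm.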
